A study of Mus musculus with 2 samples.

Results

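The genes described here are 9 enzymes that break down threonine and glycine and carry single carbon units on folate: Tdh, Gcat, Gldc, Shmt1, Shmt2, Mthfd1, Mthfd2, Tyms and Mat2a. They were chosen by name, as the rows of the deposited tables whose gene column holds the symbol in capitals, and each had 1 row among the 34126 symbols of the gene table, 17 rows in the promoter table and 32 in the transcript table between them. All 9 reached 1 RPKM (reads scaled to the length of the transcript model and to the lane's total) in at least 1 library. The gene value of each of the 9 was the sum of its transcript values. Levels compared between genes therefore depend on how reads were assigned to transcripts.

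The study sequenced poly(A) RNA of E14 mouse embryonic stem (ES) cells of strain 129P2/OlaHsd, at passage 29, in 2 libraries, 1 for each state, read on 2 lanes each. The undifferentiated cells were kept on mitomycin C treated embryonic fibroblasts in 15% serum with 1000 units per ml of leukaemia inhibitory factor, a cytokine that sustains their self-renewal. Those labelled differentiated had spent 4.5 days on gelatin, in 10% serum with all-trans-retinoic acid at 0.1 µM, and are labelled as a mixed population. Both came from 1 cell line, fibroblasts were removed by adsorption, with an estimated remainder below 0.25%, dead cells were estimated at 2% before and 8% after differentiation, and no replicate culture exists. So no test between the states could be made, and the 2 lanes of a library show the spread of sequencing and read assignment alone. In such bulk RNA, fewer cells that express a gene and less RNA per cell cannot be told apart.

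Mouse ES cells are known for their dependence on threonine. Threonine dehydrogenase (TDH) oxidises it in mitochondria, the ligase GCAT splits the product into glycine and acetyl-CoA, and the glycine cleavage system, whose decarboxylase is GLDC, passes a carbon of glycine to tetrahydrofolate. Serine feeds the same folate pool through the hydroxymethyltransferases SHMT1 in the cytosol and SHMT2 in mitochondria. MTHFD1 and MTHFD2 interconvert the loaded folates, thymidylate synthase (TYMS) spends a folate carbon on DNA precursors, and MAT2A makes S-adenosylmethionine, the methyl donor that the methionine cycle regenerates.

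The reference windows upstream of 3 of these genes are shown because each stands for a different step: Gldc for glycine cleavage, Shmt1 for the serine step and Mthfd2 for the mitochondrial folate step. They are the 250 bases before the RefSeq start of transcription on build GRCm38.p6, all on the minus strand of the genome and printed 5′ to 3′ along the gene, at chr19:30175442-30175691 for Gldc, chr11:60811266-60811515 for Shmt1 and chr6:83317605-83317854 for Mthfd2. Capitals mark CCAAT and GGGCGG on either strand (CCAAT and GC boxes, which many promoters hold).
Gldc: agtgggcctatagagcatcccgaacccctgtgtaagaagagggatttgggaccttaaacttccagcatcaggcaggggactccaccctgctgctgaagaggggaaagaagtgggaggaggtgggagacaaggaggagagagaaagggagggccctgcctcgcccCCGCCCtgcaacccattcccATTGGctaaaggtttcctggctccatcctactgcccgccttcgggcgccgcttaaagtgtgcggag
Shmt1: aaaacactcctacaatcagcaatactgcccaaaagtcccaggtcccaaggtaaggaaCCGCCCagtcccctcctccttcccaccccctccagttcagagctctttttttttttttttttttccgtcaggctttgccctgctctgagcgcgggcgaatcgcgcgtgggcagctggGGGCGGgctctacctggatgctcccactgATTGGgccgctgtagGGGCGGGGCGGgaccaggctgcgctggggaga
Mthfd2: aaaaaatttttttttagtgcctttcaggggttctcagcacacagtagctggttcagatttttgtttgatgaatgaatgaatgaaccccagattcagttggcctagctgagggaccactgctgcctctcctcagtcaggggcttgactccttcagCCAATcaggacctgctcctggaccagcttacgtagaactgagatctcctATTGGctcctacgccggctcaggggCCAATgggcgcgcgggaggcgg
Gldc held 1 CCAAT box, which began at position -66 from the start, Shmt1 held 1 at -47, and Mthfd2 held 3, at -96, -47 and -22. RefSeq windows of 300 bases, with 50 bases after the start, were found for 8 of the 9 genes, all but Tdh. CCAAT was in 5 of these 8 windows and in 37.4% of all 32851 windows, and GGGCGG was in 6 of 8 and in 35.7%. The E-box CACGTG was in Gcat and Tyms (7.15% of all windows). TGATGCAA, a composite site of the stress factor ATF4, was in none of the 8 (0.895% of all), and neither was any of the E2F sequences TTTCCCGC, TTTGGCGC, TTTCGCGC and TTTGCCGC (2.26%). GC content ran from 42.7% in Shmt2 to 67.0% in Mat2a, and was above the median of all windows (52.7%) in 7 of 8. These are matches of letters and say nothing of binding in these cells, and the RefSeq starts were not compared with those of the deposited tables, which are on another build.

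After differentiation all 9 genes stood lower than before it, and 6 of them (Tdh, Shmt1, Gldc, Shmt2, Mat2a and Gcat) were lower by at least 2-fold. Ratios are log2 of (differentiated RPKM + 1) over (undifferentiated RPKM + 1), and genes at 1 RPKM or more in either library were counted at a ratio of -1 or below, or 1 or above. Of 17899 genes at that level 8.48% were 2-fold lower and 19.1% were 2-fold higher; none of the 9 was higher. The 9 genes stood at 9.47 RPKM or more in every lane, so the floor left none of them out. With equal column sums in place of the deposited scaling 4 of the 9 passed 2-fold, without Gcat and Mat2a. Their median ratio was -1.19, against 0.12 for all genes. In all 9 both undifferentiated lanes lay above both differentiated lanes, as they did in 37.1% of all genes. The members summed to 799 RPKM before and 294.5 RPKM after differentiation, and without Tdh to 588 and 283. As a check of the labels, the ES cell factor genes Pou5f1 (692 and 29.5 RPKM) and Nanog (139.8 and 2.96) were far lower in the differentiated library, and all 10 pluripotency markers listed were at least 2-fold lower.

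**Figure D1:**
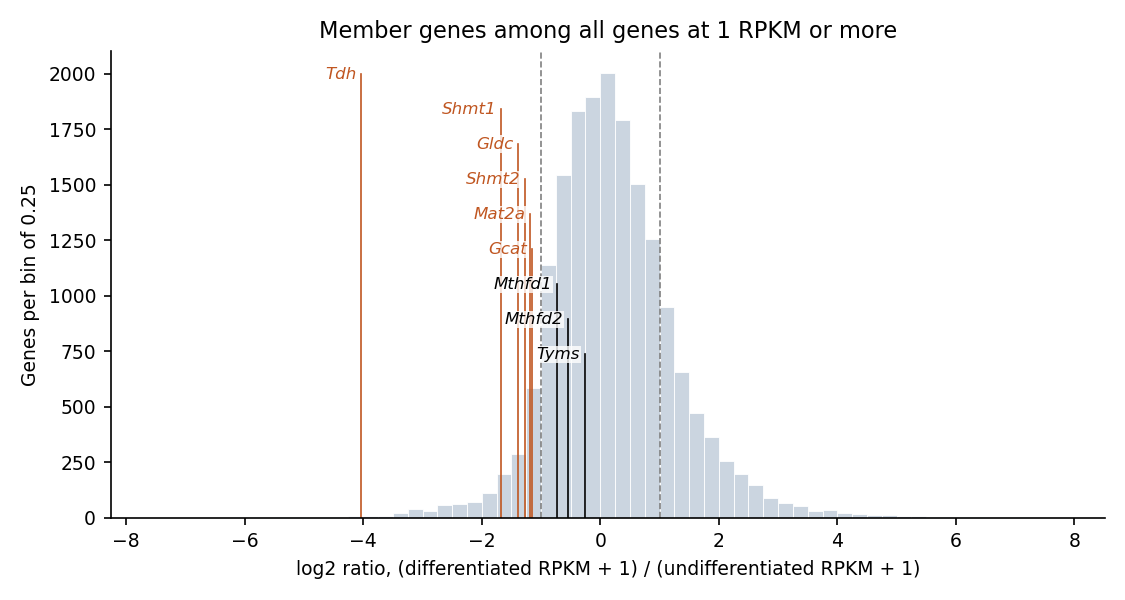
The histogram shows the log2 ratio of (differentiated RPKM + 1) over (undifferentiated RPKM + 1) for 17899 genes at 1 RPKM or more in either library, in bins of 0.25. Vertical lines mark the 9 member genes and dashed lines a 2-fold difference; Tdh lies in the far left tail at -4.04, and Tyms lies nearest to 0 at -0.26.

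Tdh, the enzyme of the first step, showed the largest difference of the 9. The gene (mm9 chromosome 14, 64111184 to 64127929, minus strand) stood at 213.6 and 209.6 RPKM in the undifferentiated lanes and at 10.3 and 13.6 RPKM in the differentiated lanes. The level after differentiation was 5.65% of that before, a 17.7-fold difference, with a log2 ratio of -4.04 (-4.25 in lane 1 and -3.85 in lane 2). Only 33 of 17899 genes, Tdh included, had a ratio as low or lower. Before differentiation Tdh was the most abundant of the 9 and made up 26.5% of their summed RPKM, and afterwards it made up 4.06%. In the undifferentiated library 849 genes had a higher level than Tdh, and in the differentiated library 8017 did. The full-length transcript rested on some 8560 and 8420 reads before differentiation and 575 and 383 after it, by lane, taking its length of 1881 bases from GENCODE M21.

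Gcat, which takes the product of TDH, stood at 25.2 and 24.3 RPKM before and at 9.47 and 11.6 RPKM after differentiation (chromosome 15, 78861304 to 78872961, plus strand). Its log2 ratio was -1.16, with -1.33 in lane 1 and a value just beyond -1 in lane 2. In RPKM, Tdh exceeded Gcat 8.55-fold in undifferentiated cells (8.46 and 8.63 by lane) and 1.13-fold in differentiated cells (1.09 and 1.17). The lanes of Tdh and Gcat overlapped after differentiation and were far apart before it. Gldc, the glycine decarboxylase, stood at 61.1 and 65.6 RPKM before and at 22.1 and 25.0 RPKM after (chromosome 19, 30172937 to 30249908, minus strand), a ratio of -1.39. Tdh therefore stood 3.34-fold above Gldc before and at 0.508 of it after differentiation. The row of the gene model Gm6635 (179 and 124 RPKM) lies inside the Gldc gene on the other strand, and the kit does not record strand.

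The other genes of glycine cleavage lay within 2-fold. Of 6 genes in the list of threonine and glycine breakdown at 1 RPKM or more, none was 2-fold lower or higher, and the median ratio was 0.00. The remaining components of the cleavage system were chosen after their values were seen. Their ratios were -0.36 (the aminomethyltransferase Amt, 21.05 and 16.2 RPKM), 0.31 (the lipoate carrier Gcsh, 51.3 and 63.9) and 0.34 (the dehydrogenase Dld, 28.2 and 36.1). The largest absolute ratios were in Sdsl, a serine dehydratase-like gene, at 0.257 and 1.31 RPKM (0.88), and Glyctk, glycerate kinase, at 1.29 and 0.547 (-0.56), both at levels near the floor. The threonine aldolase gene Tha1, named likewise, was below 1 RPKM in both libraries (0.29 and 0.599).

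**Figure D2:**
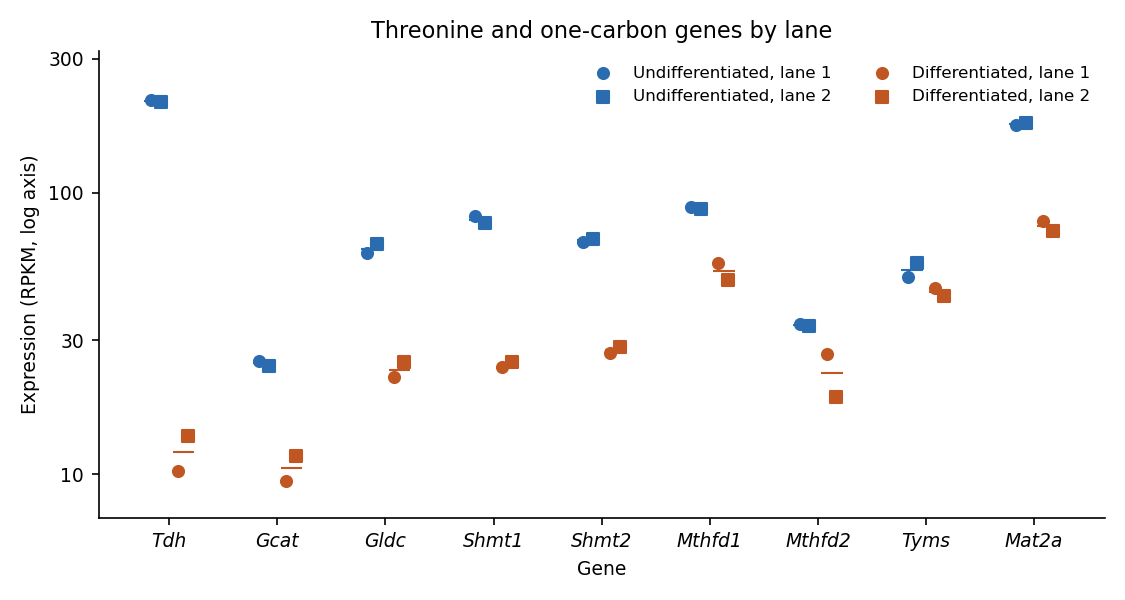
Points give the RPKM of each member gene (log axis) in lane 1 (circles) and lane 2 (squares) of the undifferentiated (blue) and differentiated (orange) libraries, and short lines give the mean of both lanes. Every blue point lies above the orange points of its gene, with the widest gap in Tdh and the narrowest in Tyms.

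The 2 serine hydroxymethyltransferase genes were both more than 2-fold lower, and their order changed. Shmt1, the cytosolic form (chromosome 11, 60601606 to 60624767, minus strand), stood at 82.5 and 78.1 RPKM before and at 24.1 and 25.0 RPKM after, a ratio of -1.67. Shmt2, the mitochondrial form (chromosome 10, 126954195 to 126959491, minus strand), stood at 67.0 and 68.8 RPKM before and at 26.9 and 28.4 RPKM after, a ratio of -1.26. Shmt1 exceeded Shmt2 1.18-fold in undifferentiated cells (1.23 and 1.14 by lane) and stood at 0.886 of it in differentiated cells (0.894 and 0.878). The lanes of the 2 genes did not overlap in either library. Ends of both genes overlap a gene on the other strand, Smcr8 by 184 bases for Shmt1 and Ndufa4l2 by 16 bases for Shmt2. The genes that make serine lay within 2-fold. Of 6 genes of serine synthesis and use none was 2-fold lower or higher (median -0.10), with Srr, serine racemase, at 30.1 and 17.7 RPKM (-0.73), and Sptlc2, a subunit of serine palmitoyltransferase, at 33.8 and 52.9 (0.63). Phgdh, the enzyme that commits carbon to serine and named after its values were seen, stood at 55.2 and 75.8 RPKM (0.45). The serine synthesis genes Psat1 (114.5 and 83.7 RPKM, -0.45) and Psph (24.8 and 16.0, -0.60), named likewise, went the other way.

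The folate interconversion genes were lower by less than 2-fold. Mthfd1, the trifunctional cytosolic enzyme (chromosome 12, 77356219 to 77420807, plus strand), stood at 89.5 and 87.3 RPKM before and at 56.1 and 49.0 RPKM after, a ratio of -0.74. Mthfd2, its mitochondrial counterpart (chromosome 6, 83255685 to 83267600, minus strand), stood at 34.1 and 33.6 RPKM before and at 26.8 and 18.8 RPKM after, a ratio of -0.55 that differed between lane 1 (-0.33) and lane 2 (-0.80). The differentiated lanes of Mthfd2 had the widest relative spread of the 9 genes in either library, with an SD of 24.7% of the mean, against a median of 8.83% over the members there and 1.90% in the undifferentiated library.

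Among 13 other folate genes that reached the floor, the differentiated library had 2 higher, 11 within 2-fold and none lower (median -0.16). Folr1, a folate receptor of the cell surface that yolk sac and placenta also express, stood at 12.3 and 9.28 RPKM before and at 29.9 and 35.9 RPKM after (1.53). Mthfd1l, the mitochondrial formate maker and named after its values were seen, was at 32.8 and 18.0 RPKM (-0.83).

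Tyms had the smallest difference of the 9. The gene (chromosome 5, 30384740 to 30400165, minus strand) stood at 50.3 and 56.4 RPKM before and at 45.8 and 42.9 RPKM after, a ratio of -0.26 (-0.13 and -0.39 by lane) that was -0.02 with equal column sums. The row of Rpl7-ps7 on the other strand (554 and 321 RPKM) is listed from 21104697 to 82766697, far longer than Tyms itself. It covers the whole of Tyms by that listed span alone. Where its reads lie, and whether it shares reads with Tyms, was not tested. Of 11 other genes of thymidylate and deoxynucleotide supply none passed 2-fold in either direction (median -0.31). Umps, which makes uridylate, stood at 53.5 and 28.6 RPKM (-0.88), and Dtymk, thymidylate kinase, at 112 and 66.3 (-0.75). Of 14 DNA replication and proliferation markers, 8 were 2-fold lower, none was higher and the median was -1.08. Their summed level was 2033 RPKM before and 1018 RPKM after. The 8 were Mcm2, Mcm3, Mcm5, Mcm6, Mcm7, Pcna, Ccne1 and Cdt1. Among the others, named after their values were seen, Mki67 (0.23) and Cdc6 (0.02) had ratios above 0. Mcm4 (-0.93), Ccnb1 (-0.92), Plk1 (-0.46) and Top2a (-0.43) were lower by less than 2-fold. This count was not repeated with equal column sums. None of the 14 markers was at 0 RPKM, and the part of proliferation in the one-carbon values was not tested.

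Mat2a, which makes S-adenosylmethionine in most cells outside the liver, was the second most abundant of the 9 genes before differentiation and the most abundant after it. It stood at 174 and 177 RPKM before and at 79.6 and 73.5 RPKM after (chromosome 6, 72382793 to 72389552, minus strand), a ratio of -1.19. Its regulatory partner Mat2b, named after its values were seen, stood at 59.2 and 58.4 RPKM before and at 40.7 and 93.5 RPKM after. Its differentiated lanes lay on either side of the undifferentiated ones, so the ratio of the means (0.19) carries no direction. The liver isoenzyme gene Mat1a was at 0 and 0.213 RPKM. In the methionine cycle list 2 of 10 genes were 2-fold lower, none was higher and the median was -0.18. The 2 lower genes were those of transsulfuration, which turns homocysteine into cysteine. Cth, cystathionine gamma-lyase, stood at 26.7 and 28.5 RPKM before and at 5.61 and 6.23 RPKM after (-2.05), and Cbs, cystathionine beta-synthase, at 6.29 and 1.45 RPKM (-1.57). Of 8 genes of polyamine synthesis and methionine salvage none passed 2-fold (median -0.66), with the spermidine synthase Srm at 136.7 and 75.2 RPKM (-0.85) and the spermine synthase Sms at 62.6 and 35.0 (-0.82), for which the undifferentiated lanes stood at 76.6 and 48.6.

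Purine synthesis takes formyl groups from the folate pool. Of its 13 genes 5 were 2-fold lower, 1 was higher and 7 lay between (median -0.79). With equal column sums only Prps1 of the 5 was 2-fold lower. Prps1, which makes the activated ribose, stood at 104.2 and 104.9 RPKM before and at 24.9 and 28.2 RPKM after (-1.94). Gart, a trifunctional enzyme with a formyltransferase step, stood at 135.7 and 130.0 RPKM before and at 56.8 and 60.5 RPKM after (-1.17). The other lower genes, named after their values were seen, were Paics (-1.15), Ppat (-1.06) and Adsl (-1.02), and the higher one was Impdh1 (1.04). In the list of choline and betaine sources 3 of 5 genes reached the floor. Pipox, which oxidises sarcosine and pipecolate, was at 15.9 and 0.904 RPKM (-3.15). Aldh7a1, an aldehyde dehydrogenase with betaine aldehyde among its substrates, was higher, at 7.87 and 34.1 (1.98), as was the sarcosine dehydrogenase gene Sardh (1.81), named after its values were seen.

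Over these 8 lists together 70 of 81 measured genes reached the floor, of which 8 were lower (11.4%, against 8.48% of all genes) and 5 were higher (7.14%, against 19.1%), with a median of -0.31. The share of lower genes in the connected pathways was thus near that of all genes. List medians for threonine and glycine breakdown, serine, folate and the methionine cycle lay between -0.21 and 0.21. They are within the 0.21 by which equal column sums shifted the median of all genes, and carry no direction. Single genes could shift by more, such as Mat2a, from -1.19 to -0.95. Within the 9 genes, the 5 mitochondrial enzymes (Tdh, Gcat, Gldc, Shmt2 and Mthfd2) had ratios from -4.04 to -0.55 with 4 past 2-fold. The 4 of cytosol and nucleus had ratios from -1.67 to -0.26 with 2 past it. The medians of these groups were -1.26 and -0.96. With equal column sums Gcat, of the first group, and Mat2a, of the second, no longer passed 2-fold.

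**Figure D3:**
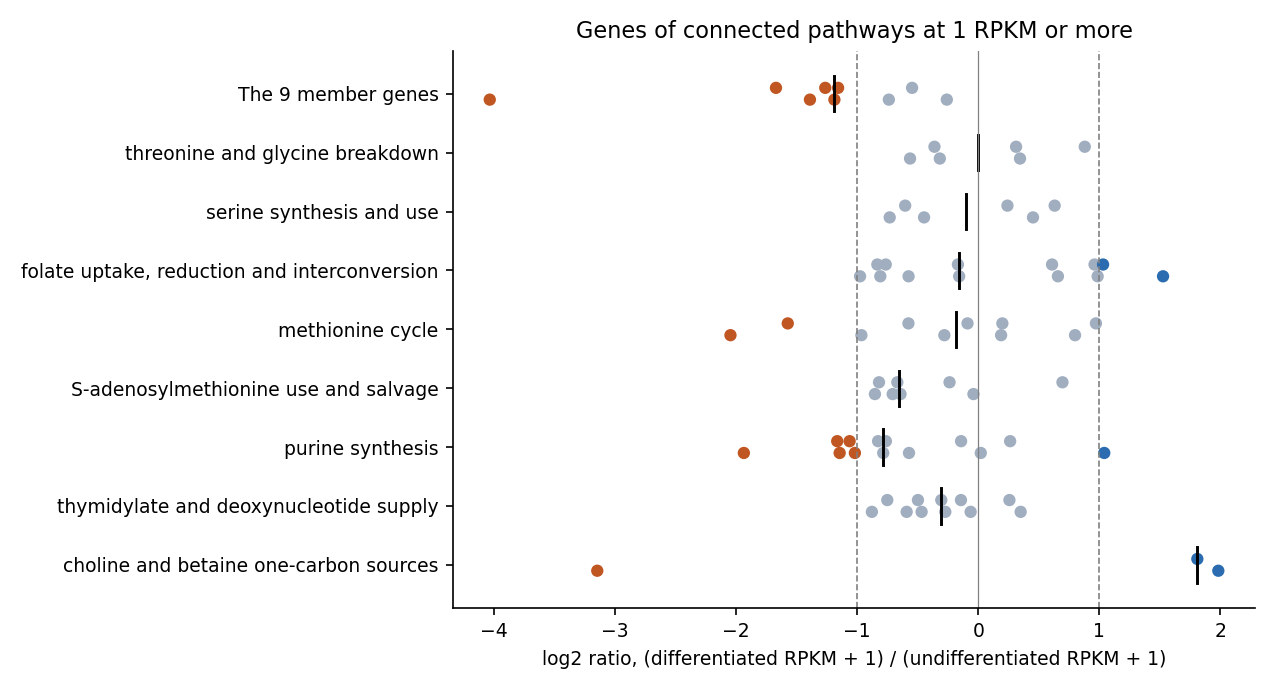
Each point is a gene at 1 RPKM or more, placed by its log2 ratio of (differentiated RPKM + 1) over (undifferentiated RPKM + 1), with 1 row for the 9 member genes and 1 for each connected pathway list; black bars are medians, dashed lines mark 2-fold, orange is lower and blue is higher. The member row has its median at -1.19, and of the lists with more than 3 genes purine synthesis has the lowest (-0.79).

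The order of levels differed between the states. In undifferentiated cells it ran, in RPKM, from Tdh (212) and Mat2a (176) through Mthfd1 (88.4), Shmt1 (80.3), Shmt2 (67.9), Gldc (63.4), Tyms (53.3) and Mthfd2 (33.8) to Gcat (24.8), and no neighbours overlapped between lanes. In differentiated cells Mat2a (76.5), Mthfd1 (52.6) and Tyms (44.4) stood above Shmt2 (27.7), Shmt1 (24.5), Gldc (23.6) and Mthfd2 (22.8), with Tdh (12.0) and Gcat (10.5) last. There the lanes of Shmt1 and Gldc, of Gldc and Mthfd2, and of Tdh and Gcat overlapped.

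The genes nearest to Tdh over the 4 lanes, by distance in log2(RPKM + 1) among 7159 genes, were Etv5, an ETS factor gene downstream of FGF signalling (173 and 11.0 RPKM, distance 0.44), Stmn2, a stathmin gene (248 and 14.0, distance 0.45), and Tdgf1, the Nodal co-receptor gene Cripto (227 and 9.20, distance 0.68). Nearest to Shmt1, the member with the next largest ratio, were Mrps5, a mitochondrial ribosomal protein gene (77.2 and 24.7 RPKM, distance 0.22), Rbpms2, an RNA-binding protein gene (80.8 and 26.6, distance 0.24), and Bcat1, the cytosolic branched-chain aminotransferase gene (87.1 and 27.0, distance 0.25).

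Annotated starts of transcription divided the values of 4 of the 9 genes; the other 5 had 1 start each. Over the mean of both lanes, no start changed its share of a gene's RPKM by 30 percentage points. Tdh had 3 annotated starts. The main ones were at the 5′ end (64127929) and at an internal start (64119096), which begins shorter annotated transcripts. The third (64115976) held only 2.11% of the gene before and 2.36% after differentiation. In the undifferentiated lanes the 5′ start stood at 122 and 126 RPKM and the internal start at 85.7 and 80.4 RPKM, so that the internal start held 40.1% and 38.4% of the gene. In the differentiated lanes the 5′ start stood at 9.33 and 6.54 RPKM and the internal start at 0.538 and 6.95, or 5.22% and 51.0% of the gene. Both starts were thus far lower after differentiation, with ratios of -3.81 and -4.15, while the split between them disagreed between lanes of 1 library. About 15 reads in lane 1 and 185 in lane 2 stood behind the main transcript of that internal start.

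In Mthfd2 the gap between lanes lay in a single start. Its 5′ start (83267600) was at 33.3 and 32.6 RPKM before and at 17.8 and 18.3 RPKM after, with lanes close together in both libraries. An internal start (83260542), whose transcript is 358 bases long in GENCODE M21, was at 0.0507 and 0.0241 RPKM before and at 8.81 and 0.00609 after, so that lane 1 alone held about 104 reads on it. From the 5′ start alone, an alternative chosen after the values were seen, the ratio of Mthfd2 was -0.84 in place of -0.55. Of 16481 starts at 3 RPKM or more in the differentiated library, 2.14% had lanes more than 10-fold apart, and 6.67% more than 2-fold. These include the starts of genes with 1 start, and genes with more than 1 were not counted apart. The internal start of Tdh (0.538 and 6.95 RPKM) also had lanes more than 10-fold apart there.

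In Shmt1 the 5′ start (60624767) held 90.5% and 93.2% of the gene before and 68.9% and 90.6% after, with an internal start (60606675) at 28.5% in differentiated lane 1 and 6.22% in lane 2. In Tyms the shares were similar in all 4 lanes, and its internal start (30396575) held 52.9% and 55.5% before and 59.0% and 57.3% after. Within the 5′ start of Tyms most RPKM were assigned to the RefSeq noncoding form NR_033402 (21.7 and 17.7 RPKM). The coding form NM_021288 was at 2.46 RPKM in undifferentiated lane 1 and listed at 0 in the 3 other lanes. Both forms have the same listed span, and how shared reads were treated is not known. The split therefore does not show which form the cells made. In the 5 genes with 1 start the leading transcript's share differed by under 5 points between the library means, as in Gldc (91.3% and 90.6%), Gcat (92.6% and 92.5%) and Mthfd1 (88.1% and 91.1%).

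**Figure D4:**
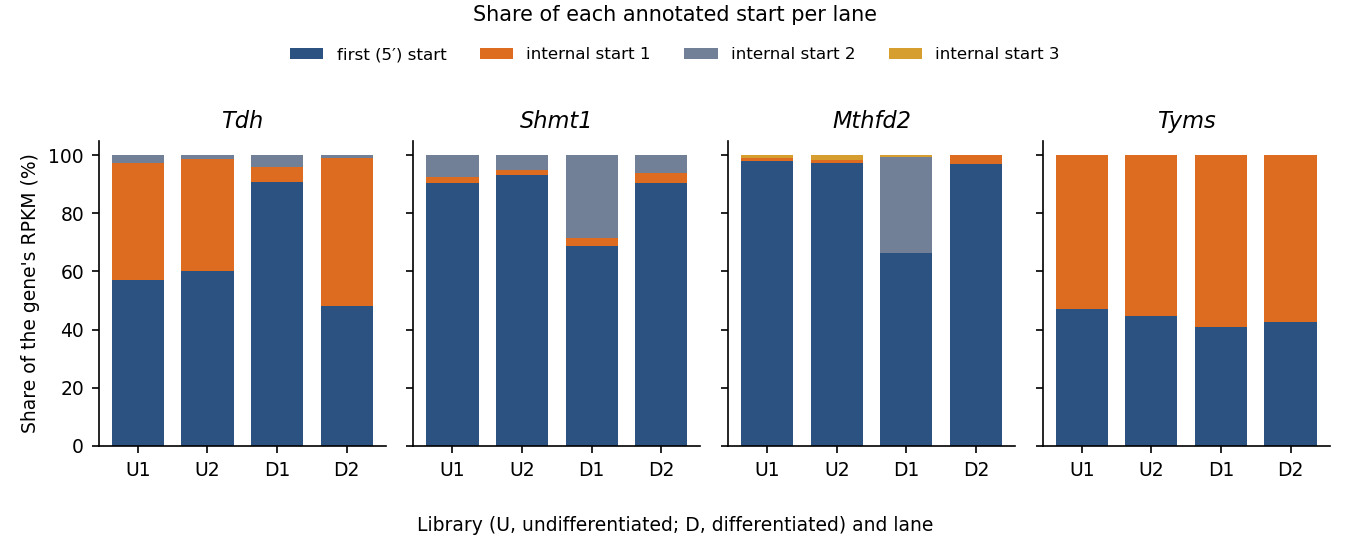
Stacked bars give the share (%) of a gene's RPKM at each annotated start, per lane, for the 4 genes with more than 1 start; U1 and U2 are the undifferentiated lanes and D1 and D2 the differentiated lanes. In Tdh, Shmt1 and Mthfd2 lane D1 departs from D2, and in Tyms all 4 lanes are alike.

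Markers of other cell types also differed between the libraries. After differentiation all 10 markers of extraembryonic endoderm stood at least 2-fold higher, with a summed level of 37.6 RPKM before and 3163 RPKM after. Fibroblast markers, which feeder cells would carry, were higher in 6 of 13 at the floor and lower in none, and summed to 47.3 RPKM before and 291 RPKM after. Of that sum, 4 genes chosen after their values were seen (Col1a1, Col1a2, Col3a1 and Pdgfra) held 23.8 RPKM before and 268 RPKM after. The other 10 markers held 23.5 and 23.4 RPKM, with ratios below 0 in 6 of them. Dcn (1.19) and Twist2 (1.35), among these 10, were 2-fold higher. Lum was below 1 RPKM in both libraries and listed at 0 in differentiated lane 1, and the endoderm markers Afp and Ttr were listed at 0 in undifferentiated lane 2. Neural progenitor markers were higher in 2 of 5 at the floor, where 19.1% of all genes were. The 2 were Nes (3.15 and 31.7 RPKM) and Pax3 (0.219 and 1.49 RPKM, ratio 1.03), the latter near the floor. Pax6 (0.00), Sox1 (0.36) and Hes5 (0.76) lay within 2-fold. The part of these cell types in the one-carbon values was not tested.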

How the data were processed

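RNA from both samples was read as 36 bp single-end reads. The authors deposited tables of genes, promoters (transcripts grouped by first exon) and transcripts, with a value for each of 2 lanes and their mean. The unit is not named; the deposited values were taken as RPKM, because value times length, in genes of 1 exon, fell on whole multiples of a constant within 5% of a read for 82.3% to 82.6% of low values. That constant implies 32000000 to 37800000 reads a lane, so 1 RPKM in a 1 kb model stands for 32.0 to 37.8 reads. Coordinates are 1-based and belong to mm9, the build named in the submitters' processing notes. The aligner, counting program and annotation were not given in the sources used here, nor was the treatment of reads shared between transcripts; transcript values were estimates, and the kit does not record strand.

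Ratios used a pseudocount of 1 RPKM and a floor of 1 RPKM in either library. Of rows with the same symbol (488), the one with the highest mean was used. Shares of starts were compared against a bound of 30 percentage points. The genes, lists and rules were chosen with earlier results of these data known. Named were all 9 members, the 2 genes with the largest absolute ratio in each of 8 pathway lists, and the 3 nearest genes to Tdh and to the member with the next largest ratio (at least 10 RPKM in either library). Of 82 pathway genes 81 were matched, all by symbol; Amd1 was not matched and is not analysed here, and a further gene that the rule names is not reported here. Marker lists covered pluripotency, feeder fibroblasts, extraembryonic endoderm, neural progenitors and proliferation. Sequences are RefSeq's for GRCm38.p6. Python 3.11.15, pandas 2.3.3 and numpy 2.4.6 were used. Alternatives covered the pseudocount, floor, scaling, lanes, shared symbols and gene set.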

Additional observations from a re-analysis of the deposited data

How the results depend on the processing

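With 1 library a group there is no replicate check. All 9 ratios were below 0 under each of 12 alternatives, and none of the genes was 2-fold higher under any. Tdh ran from -4.25 to -3.67. Shmt1, Gldc and Shmt2 stayed past 2-fold throughout, and Mthfd1, Mthfd2 and Tyms in none (Tyms -0.43 to -0.02). Equal column sums left 4 of the 9 past 2-fold, without Gcat (-0.93) and Mat2a (-0.95), and a pseudocount of 5 left 5, without Gcat (-0.94). The median of the 9 was -1.22 and -1.15 with pseudocounts of 0.1 and 5, -1.31 after median centring, -1.36 after trimmed mean, -1.32 after upper quartile and -0.95 after equal-sum scaling, and -1.28 and -1.25 in lanes 1 and 2. Equal sums shifted the median of all genes by 0.21, and median centring, trimmed mean and upper quartile shifted it by -0.12, -0.14 and -0.11; the share of genes past 2-fold that were higher was 69.3% as deposited, 80.5% with equal sums and 59.4%, 58.1% and 61.0% with the others. Connected pathway genes 2-fold lower numbered 8 as reported, 12 and 5 with pseudocounts of 0.1 and 5, 11 after median centring and upper quartile scaling, 12 after trimmed mean scaling, 4 with equal sums, and 9 and 10 in lanes 1 and 2. Those 2-fold higher numbered 5 as reported, 9 and 2 with pseudocounts of 0.1 and 5, 3 after median centring, trimmed mean and upper quartile scaling and in lane 1, and 10 with equal sums. In lane 1 alone 4 starts, in Tdh and Mthfd2, and 4 transcripts passed 30 points, and none did in lane 2. The cause was not tested. No paired analysis was possible because each group has 1 library and the lane numbers mark runs of it.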
